A study of Mus musculus with 12 samples.

Results

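Collagen VI and collagen VIII chains were followed in C2C12 myotubes as 5 genes of the 55487 listed, namely Col6a1, Col6a2, Col6a3, Col8a1 and Col8a2, chosen by symbol because they encode the microfibrillar collagen VI and the network collagen VIII. C2C12 is an established mouse myoblast line, and its cells fuse into myotubes with many nuclei once serum is reduced. Myotubes were differentiated for 5 days in medium with 2% horse serum and then kept for 24 h in medium with 4% horse serum (libraries 1 to 6) or with 4% STEM (libraries 7 to 12). STEM is a solution of factors that human embryonic stem cells released while on the way to differentiation, with the cells themselves left out. It replaced the serum, so the addition of STEM and the removal of serum cannot be told apart. All 12 libraries came from the same cell line, both groups shared the same differentiation, and the labels do not say whether the libraries of a group came from separate cultures. P-values therefore measure only the spread between these libraries, which may be technical.

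Collagen VI forms beaded microfibrils that lie beside basement membranes and tie the cell surface to the interstitial matrix. Its usual molecule joins the alpha 1, alpha 2 and alpha 3 chains, encoded by Col6a1, Col6a2 and Col6a3, and mutations in these genes cause muscle disease in humans. In muscle tissue, interstitial fibroblasts are known as a main source of collagen VI. Collagen VIII is a short-chain collagen made of the alpha 1 and alpha 2 chains, encoded by Col8a1 and Col8a2, which assemble into hexagonal networks such as those of the corneal endothelium and the vessel wall.

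The messages of all 3 collagen VI chains rose with STEM, Col6a2 and Col6a3 by more than 2-fold and Col6a1 by 1.68-fold, while of the collagen VIII chains Col8a1 was higher by 1.12-fold and the call for Col8a2 depended on 1 horse serum library. Of the 5 chains, 4 were called higher and 0 lower at an adjusted p of 0.05 (edgeR's quasi-likelihood test, Benjamini-Hochberg over 14175 tested genes). Of all tested genes, 36.4% were called, 18.9% as higher and 17.4% as lower. Over the 5 chains the median log2 fold change was 0.75, and over all tested genes it was 0.01. In these bulk libraries, more cells of a kind and more RNA per cell cannot be told apart.

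Horse serum library 6 stood apart from the rest of its group. On the second principal component of all tested genes it lay at -53.3, where the other 11 libraries lay between 0.22 and 11.8. Its 8 myotube markers summed to 6409 CPM (the gene's counts scaled to a common library size after TMM normalization), against 11675 to 12653 CPM in the other horse serum libraries and 9398 to 11836 CPM with STEM. On the first component, which separated the media, it lay at 11.2, against -35.5 to -24.6 for the other horse serum libraries and 15.5 to 28.6 for the STEM libraries, so its position there went against its label. It was kept in the group that its label gives. The test of each chain and each ratio is given with and without this library. For other genes named with a call, the value without it is given where that call changed. Without it, the background of genes called higher was 26.3% of 14267 tested genes, and 3499 of these genes were called lower. Library totals ran from 13285472 to 18254882 counts with horse serum and from 14909485 to 24536264 with STEM. Each chain except Col8a2 was covered by at least 1821 counts in every library, and Col8a2 by 148 to 833 counts.

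All 5 chains are annotated as protein-coding genes on genome build GRCm38. Col6a1 (chr10:76708792-76726168) and Col6a2 (chr10:76595762-76623630) lie on the same strand of chromosome 10 with 85161 bases between them, and Col6a3 (chr1:90765923-90843971) lies on chromosome 1. Col8a1 (chr16:57624258-57754737) and Col8a2 (chr4:126286793-126314330) lie on chromosomes 16 and 4. Only Col6a3 overlaps another annotated gene, Gm36970, an unverified transcript on the same strand that shares 0 exon bases with it and held 4 to 29 counts. The sequences upstream of the collagen VI genes are shown because these 3 genes rose together. They are RefSeq sequences of GRCm38.p6, all from the minus strand and written 5′ to 3′ up to the last base before the annotated gene. Capitals mark a GC box (GGGCGG) or a SMAD element (GTCTG) on either strand. The runs cover chr10:76726169-76726294 for Col6a1, chr10:76623631-76623880 for Col6a2 and chr1:90843972-90844221 for Col6a3.
Col6a1: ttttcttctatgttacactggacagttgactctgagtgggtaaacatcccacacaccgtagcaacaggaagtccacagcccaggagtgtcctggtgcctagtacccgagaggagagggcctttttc
Col6a2: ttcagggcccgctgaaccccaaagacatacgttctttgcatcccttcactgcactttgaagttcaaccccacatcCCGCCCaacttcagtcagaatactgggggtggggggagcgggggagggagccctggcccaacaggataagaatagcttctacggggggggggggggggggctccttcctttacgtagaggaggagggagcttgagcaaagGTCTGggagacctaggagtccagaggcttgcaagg
Col6a3: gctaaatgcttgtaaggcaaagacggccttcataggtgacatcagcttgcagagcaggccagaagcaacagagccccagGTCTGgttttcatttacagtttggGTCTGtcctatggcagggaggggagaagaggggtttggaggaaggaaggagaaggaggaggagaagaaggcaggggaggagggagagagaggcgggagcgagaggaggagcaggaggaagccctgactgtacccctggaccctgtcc
In the 250 bases before the RefSeq start, Col6a3 held a SMAD element 171 and 147 bases upstream. Col6a2 held a GC box 175 bases and a SMAD element 35 bases upstream of the outer of its 2 start sites, and 3 GC boxes (67, 15 and 11 bases upstream) before the inner one. Col6a1 held neither motif. It had an AP-1 element (TGANTCA) 90 bases upstream of its RefSeq start, in a stretch that GENCODE places inside the gene and that is not printed. Of all 32851 RefSeq promoter windows, 32.7% held a GC box, 42.2% a SMAD element and 6.75% an AP-1 element. Both collagen VIII windows held 4 GC boxes, and that of Col8a1 also held a SMAD element 103 bases upstream. An E-box (CANNTG), found in 66.2% of all windows, was present for Col6a1 (228 bases upstream) and Col8a1 (99 and 18 bases). None of the windows of the chains held a TATA box (TATAAA) or a CCAAT box. A match of letters is a description and does not show binding.

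Col6a2, the alpha 2 chain, had the largest log2 fold change of the 5 chains. Its 6 horse serum libraries ran from 138 through a median of 145 to 191 CPM, and its 6 STEM libraries from 360 through a median of 377 to 407 CPM. The groups did not overlap, and the highest horse serum value belonged to library 6. The mean was 153 ± 20.0 CPM (SD, n = 6 libraries) in horse serum, and STEM libraries averaged 381 ± 20.2 CPM. Its log2 fold change was 1.32 (SE 0.0738, 2.50-fold, edgeR adjusted p = 1.81e-08, exact permutation p = 0.00216, the smallest that 6 against 6 libraries allow). Without horse serum library 6 the log2 fold change was 1.40 (2.63-fold, edgeR adjusted p = 2.52e-14).

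Col6a3, the long alpha 3 chain whose C-terminal end is cut off after secretion to give endotrophin, rose by a similar factor with more spread. Horse serum libraries 1 to 5 lay between 248 and 283 CPM, and library 6 at 497 CPM. STEM libraries 7 to 10 lay between 638 and 678 CPM, and libraries 11 and 12 at 828 and 843 CPM. The groups did not overlap, and both groups held libraries well above the others. The log2 fold change was 1.23 (SE 0.16, 2.34-fold, edgeR adjusted p = 8.32e-05), and it was 1.42 (SE 0.0763, 2.67-fold, edgeR adjusted p = 1.7e-09) without horse serum library 6. STEM libraries 11 and 12 were also the highest for other genes with long exons. The 1417 tested genes of at least 9567 exon bases, Col6a3 among them, averaged 0.081 and 0.136 above their own mean (log2 CPM) in these libraries and -0.117 in STEM library 10. Horse serum library 6 was likewise the highest of its group for these genes, at 0.053, where the others lay between -0.069 and 0.038. The groups differed by 0.02 over these long genes, and the part of this pattern in the Col6a3 values was not tested.

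Col6a1, the alpha 1 chain, was the most abundant of the 5, and its fold change had the smallest standard error. Its horse serum libraries ran from 678 through a median of 722 to 814 CPM, and its STEM libraries from 1152 through a median of 1218 to 1350 CPM. The groups did not overlap, and horse serum library 6, at 714 CPM, lay inside its group. The log2 fold change was 0.75 (SE 0.0543, 1.68-fold, edgeR adjusted p = 2.1e-07), with the same value of 0.75 without library 6 (edgeR adjusted p = 1.39e-09). For Col6a1, Col6a2 and Col6a3, that is 3 of the 5 chains, the lowest STEM value exceeded the highest horse serum value, and 8.68% of all tested genes behaved this way.

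**Figure D1:**
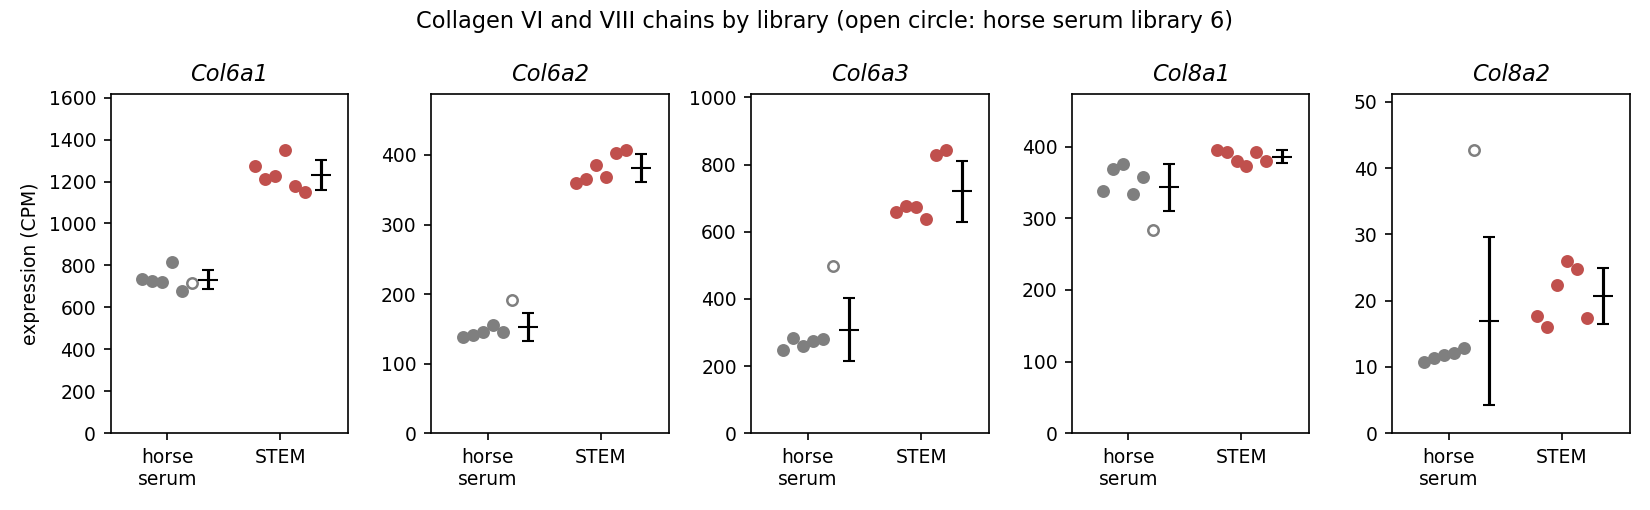
Expression of each chain in every library (y axis, CPM from 0, a separate scale in each panel), with 6 horse serum libraries in grey, 6 STEM libraries in red, horse serum library 6 as an open circle, and black bars for mean ± SD. The STEM points of Col6a1, Col6a2 and Col6a3 all lie above the horse serum points, while for Col8a2 the open circle, at 42.7 CPM, is the highest point of all.

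Col8a1, the alpha 1 chain of collagen VIII, differed little between the media. Horse serum libraries ran from 284 through a median of 348 to 376 CPM, with the lowest value in library 6, and STEM libraries from 373 through a median of 386 to 395 CPM. The groups overlapped, since 5 of 6 STEM libraries lay above every horse serum library. The log2 fold change was 0.17 (SE 0.06, 95% interval 0.04 to 0.30, edgeR adjusted p = 0.0382). This call was lost in 7 of the 12 fits that left out 1 library, where the adjusted p ran from 0.0185 to 0.0859. The lowest came without horse serum library 6 (log2 fold change 0.12, edgeR adjusted p = 0.0185).

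Col8a2, the alpha 2 chain of collagen VIII, was the least abundant member. Horse serum libraries 1 to 5 lay between 10.8 and 12.9 CPM and library 6 at 42.7 CPM, while STEM libraries ran from 16.0 through a median of 20.0 to 25.9 CPM. STEM values thus lay above the first 5 horse serum libraries and below the remaining one. With all 12 libraries the log2 fold change was 0.26 (SE 0.354, 95% interval -0.52 to 1.04, edgeR adjusted p = 0.598, exact permutation p = 0.182). Without horse serum library 6 it was 0.80 (SE 0.126, 1.74-fold, edgeR adjusted p = 9.54e-05), and all 6 STEM libraries exceeded all 5 horse serum libraries (exact permutation p = 0.00433). All 5 chains were then called higher, beside 26.3% of 14267 tested genes in that fit.

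**Figure D2:**
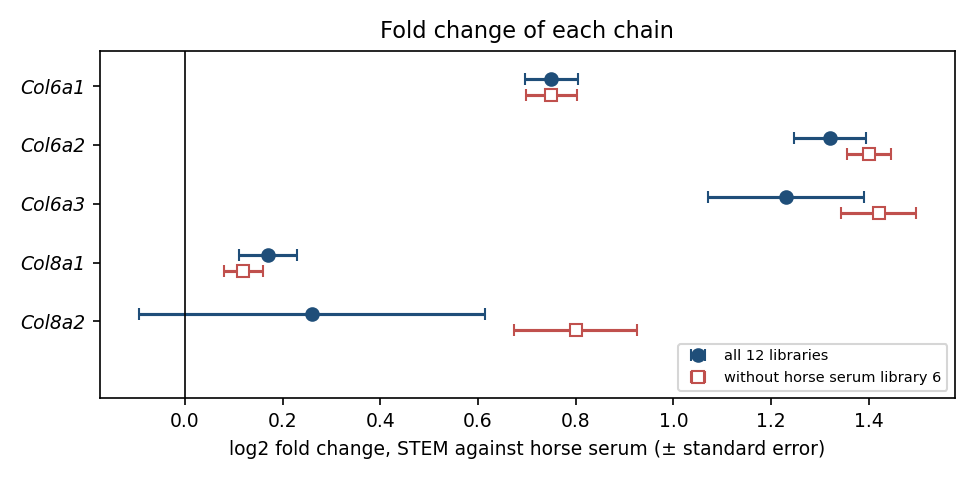
Log2 fold change of each chain, STEM against horse serum (x axis), from edgeR with its standard error, over all 12 libraries (blue circles) and without horse serum library 6 (open red squares). Col6a1 stays at 0.75 in both fits, whereas Col8a2 moves from 0.26 to 0.80.

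Levels were compared between chains per kilobase of exon (RPKM, CPM divided by the exon length in kilobases). With horse serum, Col6a1 stood at 167 ± 10.4 RPKM (SD, n = 6), followed by Col8a1 at 43.8 ± 4.26, Col6a3 at 25.7 ± 7.84, Col6a2 at 18.3 ± 2.40 and Col8a2 at 3.77 ± 2.81 RPKM. Col6a1 ranked 282 of the tested genes. The ranges of Col8a1 and Col6a3 overlapped, and so did those of Col6a3 and Col6a2, in both cases through library 6. Without it they were separate, at 42.7 to 48.0 RPKM for Col8a1, 20.7 to 23.6 for Col6a3 and 16.5 to 18.7 for Col6a2, with the same order of means, and Col8a2 stood at 2.63 ± 0.179 RPKM. With STEM, Col6a1 stood at 281 ± 16.2 RPKM, Col6a3 at 60.2 ± 7.57, Col8a1 at 49.2 ± 1.12, Col6a2 at 45.8 ± 2.43 and Col8a2 at 4.60 ± 0.937 RPKM. Col8a1 thus lay above Col6a3 in the first medium and below it in the second, with no overlap between their STEM ranges of 47.6 to 50.4 and 53.3 to 70.4 RPKM. Between Col8a1 and Col6a2 the STEM ranges overlapped. The order of the middle chains rested on the length used: with the longest annotated transcript of each gene, Col6a2 had 77.7, Col8a1 75.5 and Col6a3 71.2 RPKM with STEM, and their ranges overlapped. Col6a1 remained first and Col8a2 last under both lengths.

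Because the alpha 1, alpha 2 and alpha 3 chains of collagen VI meet in 1 molecule, the ratio of their messages was compared within each library. The ratio of Col6a2 to Col6a1 per exon length was 0.110 ± 0.0160 (SD, n = 6) with horse serum and 0.164 ± 0.0168 with STEM. Its highest horse serum value, 0.141 in library 6, lay just below its lowest STEM value, 0.143. The log2 difference was 0.58 (exact permutation p = 0.00216, 0.00866 after Benjamini-Hochberg adjustment over the 4 ratios compared). It was 0.65 without horse serum library 6 (adjusted exact permutation p = 0.00577). Col6a2 messages therefore rose by a larger factor than Col6a1 messages.

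The ratio of Col6a3 to Col6a1 moved in the same direction with less certainty. It was 0.155 ± 0.0502 (SD, n = 6) with horse serum and 0.216 ± 0.0380 with STEM, a log2 difference of 0.51 (exact permutation p = 0.0281, 0.0563 adjusted). Without horse serum library 6, whose ratio of 0.255 was near those of STEM libraries 11 and 12 (0.257 and 0.268), the log2 difference was 0.67 (adjusted exact permutation p = 0.00577). Without STEM libraries 11 and 12, a choice made after their values were seen, it was 0.36 (adjusted exact permutation p = 0.241). The ratio of Col6a3 to Col6a2 was 1.38 ± 0.218 with horse serum and 1.31 ± 0.102 with STEM (log2 difference -0.07, exact permutation p = 0.597), so no difference was detectable between these chains. Without horse serum library 6 the log2 difference of this ratio was 0.01 (exact permutation p = 0.81). The size of a ratio rested on the length used, but its log2 difference between the media did not. With the longest annotated transcript, Col6a3 lay slightly below Col6a2 in horse serum, at 30.4 and 31.1 RPKM. The ratio of Col8a2 to Col8a1 was 0.0923 ± 0.0835 and 0.0938 ± 0.0203 (log2 difference 0.30, exact permutation p = 0.511), and without horse serum library 6 its log2 difference was 0.66 (adjusted exact permutation p = 0.00577).

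**Figure D3:**
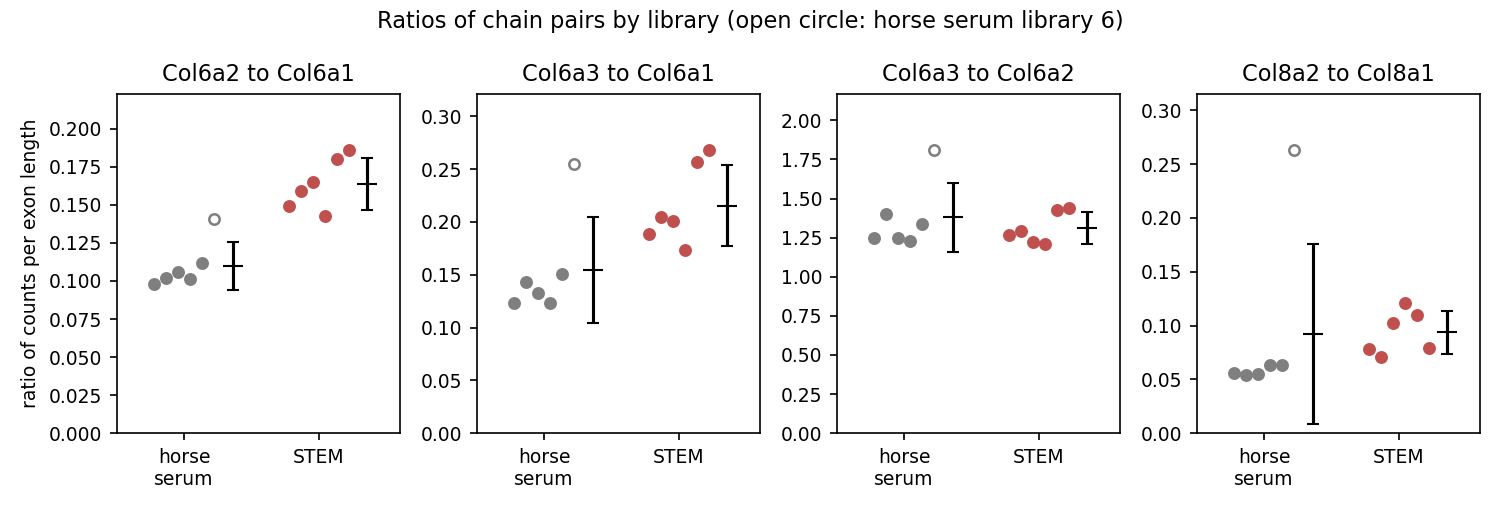
Ratio of the counts of chain pairs per exon length in every library (y axis from 0, no unit), with horse serum in grey, STEM in red, horse serum library 6 as an open circle, and black bars for mean ± SD. The 6 STEM points of Col6a2 to Col6a1, from 0.143 to 0.186, lie above all horse serum points. Those of Col6a3 to Col6a2, from 1.21 to 1.44, overlap the horse serum range of 1.23 to 1.81.

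The other genes for collagen VI chains and for collagen X, the further short-chain network collagen, were at or under the filter on low counts. Col6a4 had at most 7 counts, Col6a6 at most 1 and Col10a1 at most 4 in any library. Col6a5 had at most 1 count in each horse serum library and 2 to 8 in each STEM library, too few for a fold. DESeq2 called Col6a5 higher. The alpha 1 to alpha 3 chains were therefore the collagen VI chains detected above this level.

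Genes next to Col6a1 and Col6a2 showed no common direction. Of 9 other protein-coding genes within 250 kb of either gene, 5 were tested, 1 was called higher and 1 lower. The shares over all tested genes were 18.9% higher and 17.4% lower, and 5 genes are too few to tell the locus from this background. Mcm3ap, which encodes a nuclear mRNA export factor, had a log2 fold change of 0.24 (edgeR adjusted p = 0.0263). Lss, which encodes lanosterol synthase of the sterol pathway, fell from 109 ± 13.4 to 60.8 ± 4.34 CPM (log2 fold change -0.84, edgeR adjusted p = 1.47e-06). Ybey, Pcnt and Pcbp3 had log2 fold changes of -0.17, -0.16 and 0.15 and were not called, although Pcnt was called lower without horse serum library 6 (-0.16, edgeR adjusted p = 0.0473). Beside Col8a2, Trappc3 (-0.03, not called) and Adprhl2 (-0.22, edgeR adjusted p = 0.0257) lay on either side. Cops8 beside Col6a3 had a log2 fold change of 0.13 (edgeR adjusted p = 0.0197), and Mlph on its other side had at most 1 count. Cmss1 beside Col8a1 had a log2 fold change of -0.17 and was not called.

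Across the 12 libraries, Col6a2 and Col6a3 were more alike than either was to Col6a1. Likeness was measured as the root mean square difference of log2 CPM after each gene was centred on its own mean, so a lower value means a closer profile. Profiles were not scaled, so the measure also reflects the fold changes given above and is not separate evidence that genes move together. The nearest tested gene to both Col6a2 (0.124) and Col6a3 (0.101) was Col18a1, which encodes a basement membrane collagen whose C-terminal fragment is endostatin. Col18a1 lies on the same chromosome as Col6a2 (chr10:77052178-77166548), 326009 bases beyond Col6a1, and its level went from 202 CPM in horse serum to 493 CPM (log2 fold change 1.29, edgeR adjusted p = 1.56e-05). Ucp2 and R3hdml followed for Col6a2, and Hhipl1 and Sh3bgrl2 for Col6a3. Col6a2 and Col6a3 were each other's rank 6, at 0.156. Without horse serum library 6 the order changed: Hhipl1 (0.0707) and Col6a3 (0.0895) came before Col18a1 (0.0927) for Col6a2, Col6a2 came before Col18a1 (0.0952) for Col6a3, and Zdhhc16 (0.0515) came before Psmb10 for Col6a1. Over all 12 libraries, Col6a1 was nearest to Psmb10, a subunit of the immunoproteasome (0.0678), then Insyn1 and BC034090. It lay at 0.328 from Col6a2 and slightly nearer, at 0.318, to Col8a1. Col8a2 was nearest to Apobec1 (0.152), which edits apolipoprotein B mRNA, then Fzd1 and Ubxn2b. Col8a1 was nearest to Commd3, Zfp672 and Lmf1, with differences of 0.0599 to 0.0605. Apobec1 was again nearest to Col8a2 (0.0662) without horse serum library 6, and Exoc5 was then nearest to Col8a1 (0.0303).

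**Figure D4:**
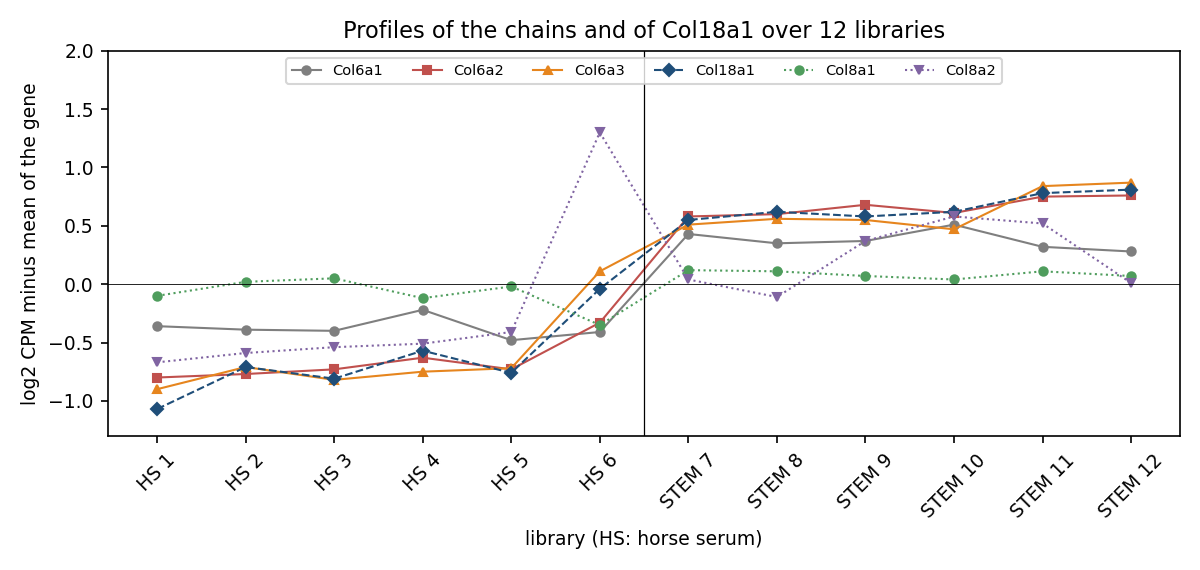
Log2 CPM of each chain and of Col18a1 minus the gene's own mean (y axis) in the 12 libraries (x axis, HS for horse serum), where lines only join the points of 1 gene. Col6a2, Col6a3 and Col18a1 run close together with a step up at the STEM libraries, Col6a1 makes a smaller step, Col8a1 stays near 0, and Col8a2 peaks in horse serum library 6.

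Among the other 39 collagen genes, 25 were tested, and their median log2 fold change was 0.26. Of these, 10 were called higher and 4 lower, beside 18.9% and 17.4% of all tested genes. Without horse serum library 6, 13 were called higher and 4 lower, beside 26.3% of all tested genes called higher. In that fit 3499 of 14267 tested genes were called lower. Only 1 of the tested other collagens, Col23a1, a transmembrane collagen, had a larger log2 fold change than Col6a2 (3.55, from 5.14 to 60.5 CPM). A larger one than that of Col6a3 was found for 3 of them, and than that of Col6a1 for 4. Col14a1, a fibril-associated collagen, fell by more than Col6a2 rose, from 24.5 to 2.75 CPM (-3.14). So did Col19a1, from 1.04 to 0.376 CPM (-1.45). The main type IV chains of basement membranes, to which collagen VI microfibrils are anchored, rose less than the collagen VI chains. Col4a1 had a log2 fold change of 0.25 (means of 332 and 394 CPM, edgeR adjusted p = 0.0022) and Col4a2 of 0.32 (edgeR adjusted p = 0.00106). Col4a5 was not called (0.20, edgeR adjusted p = 0.165), but it was called higher without horse serum library 6 (0.30, edgeR adjusted p = 0.00489).

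Receptors for collagens VI and VIII moved in both directions, with 2 of 7 tested genes called higher, 2 lower and 3 not called. Among all tested genes 18.9% were called higher and 17.4% lower. Antxr1, an anthrax toxin receptor that binds the C-terminal fragment of the alpha 3 chain, rose from 27.9 ± 7.29 to 41.8 ± 8.32 CPM (log2 fold change 0.58, edgeR adjusted p = 0.0152), with overlapping ranges of 23.0 to 42.2 and 32.7 to 53.1 CPM. Antxr2, the related receptor known for taking up collagen VI, fell from 87.6 ± 11.1 to 76.5 ± 2.89 CPM (-0.20, edgeR adjusted p = 0.0394). Ddr1, a receptor tyrosine kinase activated by collagen, rose from 65.3 ± 4.31 to 91.8 ± 2.42 CPM with no overlap (0.49, edgeR adjusted p = 2.58e-06). Itgb1, the beta 1 integrin subunit of the collagen-binding integrins, fell from 1271 ± 87.0 to 1127 ± 60.6 CPM (-0.17, edgeR adjusted p = 0.0247). Its alpha partners Itga1 (-0.23) and Itga10 (-0.09) were not called, and Itga2 had at most 5 counts. Cspg4, the NG2 proteoglycan, had a log2 fold change of 0.32 (edgeR adjusted p = 0.157), and 0.47 without horse serum library 6 (edgeR adjusted p = 0.026).

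Of 9 tested partners of the collagen VI microfibril, 5 were called higher and 1 lower, with a median log2 fold change of 0.32, beside 18.9% higher and 17.4% lower among all tested genes. This list was not tested as a group. Bgn, the small proteoglycan biglycan that binds collagen VI, rose from 446 ± 48.9 to 613 ± 78.1 CPM (log2 fold change 0.46, edgeR adjusted p = 0.000798), whereas the related Dcn, decorin, stood at 7.97 and 7.26 CPM and was not called. Matn3, a matrilin of cartilage that links matrix fibres, rose from a low level of 0.540 ± 0.372 to 2.32 ± 0.871 CPM (2.02, edgeR adjusted p = 0.00102). Matn2 had a log2 fold change of 0.10 and was not called, and Matn1 and Matn4 had 0 counts. Vwa1, which encodes WARP, a matrix protein that joins collagen VI to perlecan, fell from 65.9 ± 26.3 to 24.9 ± 5.06 CPM (-1.40, edgeR adjusted p = 0.00783). Horse serum library 6 held the lowest Vwa1 value, 15.7 CPM, and without it the log2 fold change was -1.60 (edgeR adjusted p = 4.18e-06). Fn1, fibronectin, rose from 2166 ± 516 to 3343 ± 974 CPM (0.63, edgeR adjusted p = 0.035), with wide and overlapping ranges. Hspg2, perlecan, had a log2 fold change of 0.52 and was not called (edgeR adjusted p = 0.126). The type IV chains Col4a1 and Col4a2 are the other 2 called partners.

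Enzymes that modify, fold or escort collagen chains in the endoplasmic reticulum included 6 of 11 tested genes called higher and 0 lower. Among all tested genes 18.9% were called higher and 17.4% lower, and this list was not tested as a group. P3h1, a prolyl 3-hydroxylase, rose from 68.0 ± 3.74 to 104 ± 5.86 CPM (log2 fold change 0.61, edgeR adjusted p = 5.56e-07). Serpinh1, the collagen chaperone HSP47, rose from 1007 ± 46.4 to 1299 ± 75.1 CPM (0.37, edgeR adjusted p = 6.81e-05). Neither gene overlapped between the groups. Ppib, a prolyl isomerase, and Colgalt1, a galactosyltransferase of hydroxylysine, had log2 fold changes of 0.32 and 0.26, Plod3 of 0.15 and P4hb of 0.17, all called. The lysyl hydroxylases Plod1 (-0.15) and Plod2 (-0.09) and the prolyl 4-hydroxylase subunits P4ha1 (0.02) and P4ha2 (-0.15) were not called. Without horse serum library 6, Plod1 (-0.24), Plod2 (-0.20) and P4ha2 (-0.31) were called lower, so this group then held 6 genes higher and 3 lower. In that fit 26.3% of 14267 tested genes were called higher, and 3499 of them were called lower. Colgalt2 had 0 counts.

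Of 4 tested proteases with collagens or their processing as substrates, 1 was called higher and 1 lower. The shares over all tested genes were 18.9% higher and 17.4% lower. Bmp1, the procollagen C-proteinase that also cleaves the alpha 3 chain of collagen VI, rose from 159 ± 14.4 to 257 ± 5.35 CPM without overlap (log2 fold change 0.69, edgeR adjusted p = 4.2e-07). Mmp2, a gelatinase, fell from 339 ± 18.4 to 300 ± 9.57 CPM (-0.18, edgeR adjusted p = 0.00614). Mmp14, its membrane-bound activator, had a log2 fold change of 0.27 (edgeR adjusted p = 0.184), with 364 CPM in horse serum library 6, and 0.47 (edgeR adjusted p = 1.61e-07) without that library. Mmp11, which cleaves the alpha 3 chain of collagen VI, stood at 37.2 and 36.2 CPM and was not called. Mmp9 had at most 5 counts.

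**Figure D5:**
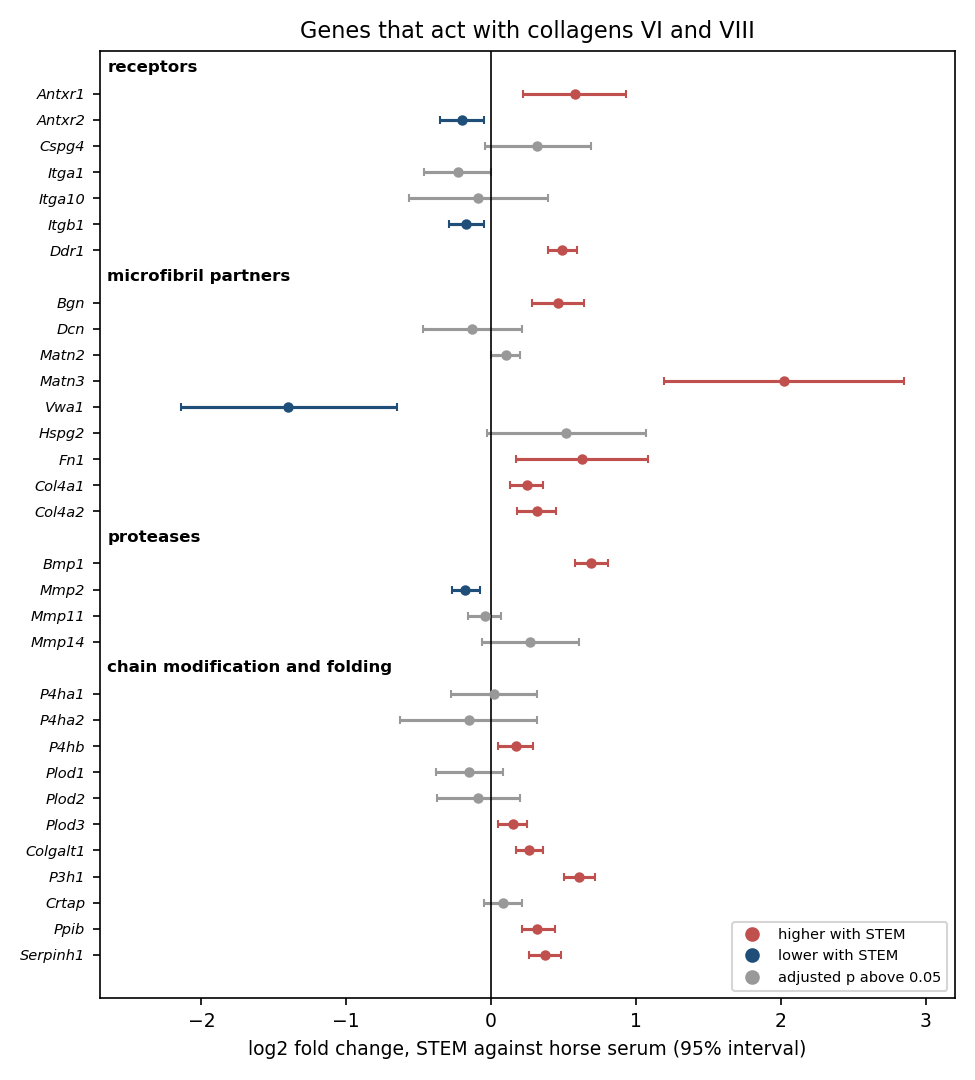
Log2 fold change with its 95% interval (x axis, edgeR, STEM against horse serum, all 12 libraries) for the tested receptors, microfibril partners, proteases and enzymes of chain modification, coloured by call. Matn3 at 2.02 and Vwa1 at -1.40 lie farthest from 0, and the intervals of the modification genes lie within 1 log2 unit of 0.

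Markers of cells other than myotubes were read beside these results. The summed level of 5 fibroblast markers was 12.6 to 18.2 CPM in horse serum libraries 1 to 5 and 27.5 CPM in horse serum library 6. With STEM it was 29.0 to 31.2 CPM. The members differed in library 6, where Pdgfra made up most of the sum (24.8 CPM, against 16.7 to 19.5 CPM with STEM). Dpt, at 1.74 CPM, was the lowest of its group there, and Pi16, at 1.02 CPM, lay below its STEM range of 4.38 to 6.30 CPM. The other 2 fibroblast markers, Thy1 and Tcf21, had at most 3 counts in every library. Of the 3 tested members, Dpt and Pi16 were called higher (log2 fold changes of 1.10 and 2.83), and Pdgfra was not (0.41, and 0.67 and called without horse serum library 6). The 4 smooth muscle markers summed to between 1800 and 2370 CPM in the horse serum libraries and between 2363 and 2872 CPM in the STEM libraries. Acta2 made up most of this sum, with means of 1934 and 2452 CPM. Of 3 tested members, 2 were called higher, Acta2 (log2 fold change 0.34) and Cnn1 (0.91), and Smtn was not called (-0.07). Myh11 had at most 12 counts in any library and was under the filter on low counts. Endothelial markers summed to at most 1.0 CPM and macrophage markers to at most 5.48 CPM in any library, with Pecam1, Kdr, Ptprc and Adgre1 at or below 3 counts. The 4 markers of undifferentiated myoblasts summed to 271 to 420 CPM in horse serum and 207 to 260 CPM in STEM, with 3 of 4 called lower. Pax7 was the one not called, at 33.3 and 32.4 CPM (log2 fold change -0.04). Of 5 proliferation markers, 4 were called lower. Of 8 myotube markers, 1 was called higher and 2 lower, and without horse serum library 6 the counts were 1 higher and 5 lower. The added genes were Acta1, Mylpf and Tnnt3, with log2 fold changes of -0.25, -0.38 and -0.17 in that fit. Beside these counts, 18.9% of all tested genes were called higher and 17.4% lower with all 12 libraries. Without horse serum library 6, 26.3% of 14267 tested genes were called higher, and 3499 of them were called lower. The part of the marker shifts in the collagen values was not tested.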

How the data were processed

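RNA of C2C12 myotubes was sequenced in 12 libraries, 6 per medium, grouped by their titles. The authors removed ribosomal RNA, made stranded libraries of the remaining total RNA and deposited raw read counts per Ensembl gene. The submitters' processing notes name STAR 2.7.3a, featureCounts 1.6.3, DESeq2 1.26.0 and build GRCm38. The strand setting of the counting and the annotation release are not given in the sources used here, so reads of a gene and an antisense partner may not be separated. Symbols, coordinates and lengths came from GENCODE for GRCm38, where 55227 of the 55487 listed genes were found, and genes outside it held 0.00268% of counts. Promoter sequences came from RefSeq (GRCm38.p6), where all 5 chains were matched. Motifs were searched on both strands.

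Counts were tested with edgeR 4.0.16 in R 4.3.3 (glmQLFit with robust estimation, glmQLFTest, TMM, filterByExpr), and p-values were adjusted over 14175 tested genes by the Benjamini-Hochberg method. The study's methods use DESeq2, which was an alternative here (1.42.0), as was limma-voom (limma 3.58.1). The log2 CPM used a prior count of 2, and chain ratios used counts plus 0.5. Permutation tests were exact and two-sided over libraries. Lists were described by counts and medians without a test. The steps were tested on simulated data. Other scalings, filters, ratio offsets and leaving out each library were tried. Intervals cover the spread between libraries only, and counts of 0 to 3 cannot tell a gene apart from background.

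The members and lists were chosen with earlier results of these data known. The text names the chains, the genes of the lists, the tested protein-coding neighbours within 250 kb of Col6a1 or Col6a2 and the nearest neighbours of the other chains, the 3 genes of most similar profile per chain, the type IV collagens, and other collagens with a larger absolute log2 fold change than Col6a2.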

Additional observations from a re-analysis of the deposited data

Results flagged for a closer look

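In 11 of 32 groups of 6 libraries examined, 1 library lay so far from the rest that its gap to the nearest value, as a share of the group's range, exceeded Dixon's 95% critical value, which chance alone gives in about 5% of groups. Horse serum library 6 was that library in 10 of them. For the chains, it held the highest horse serum level of Col6a2 (191 CPM), Col6a3 (497 CPM) and Col8a2 (42.7 CPM). Its ratios per exon length were likewise the highest of its group, at 0.141 for Col6a2 to Col6a1, 0.255 for Col6a3 to Col6a1, 1.81 for Col6a3 to Col6a2 and 0.263 for Col8a2 to Col8a1. Its summed markers were the lowest of the group for myotubes (6409 CPM) and undifferentiated myoblasts (271 CPM) and the highest for fibroblasts (27.5 CPM). In the remaining group, STEM library 8 held the highest sum of endothelial markers, 1.0 CPM. These groups share libraries and are not independent of each other.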

How the results depend on the processing

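The limits are 1 cell line, 1 dose and time, and 1 library that stood apart. Col6a1, Col6a2 and Col6a3 kept their direction and call in every fit run, with log2 fold changes of 0.72 to 0.78, 1.29 to 1.40 and 1.17 to 1.42 when each library was left out in turn, and 0.73 to 0.77, 1.30 to 1.34 and 1.21 to 1.27 under 7 other settings (scaling, filter, DESeq2 and limma-voom). Col8a1 ran from 0.12 to 0.20 when a library was left out and lost its call with upper quartile normalization (0.15, adjusted p = 0.0712), and its adjusted p ran from 0.00783 to 0.0712 over the 7 other settings. Col8a2 ran from 0.16 to 0.80 and was called only without horse serum library 6. Over the 12 fits that left out a library, the log2 difference of the chain ratios ran from 0.54 to 0.65 for Col6a2 to Col6a1, from 0.45 to 0.67 for Col6a3 to Col6a1 (past the threshold without horse serum library 6, at 0.67, and without STEM library 10, at 0.57), from -0.10 to 0.01 for Col6a3 to Col6a2 (its sign turned without horse serum library 6, at 0.01) and from 0.21 to 0.66 for Col8a2 to Col8a1. Without STEM libraries 11 and 12, Col6a2 to Col6a1 gave 0.49 (adjusted exact permutation p = 0.0381). DESeq2 called 1 of the further collagen VI and short-chain genes and 1 macrophage marker, where edgeR called 0 and tested 0 and 1 of them. Without horse serum library 6, the myotube list held 6 calls (1 higher, 5 lower) against 3 and the macrophage list 1 against 0. Genes called higher ran from 2289 to 3746 and lower from 2133 to 3499 over the left-out libraries, the highest without horse serum library 6. Where a call changed with a setting, the cause was not tested. No paired analysis was possible because the libraries of the 2 groups carry different numbers.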
